A study of Sus scrofa with 297 samples.

Results

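Livers of German Landrace pigs whose animal numbers began with 21 were compared with livers of pigs whose numbers began with 29. Each sample title ends in a 4-digit animal number, and its leading digits place a pig in number series 21 (2100 upwards) or number series 29 (2900 upwards). There were 29 pigs in series 21 and 94 in series 29, with or without carcass values. The other 174 pigs fell into number series 22 to 28, with 9 to 46 pigs in each.

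All pigs were adult, healthy, performance-tested German Landrace animals, and liver was taken once from each at slaughter. No treatment is named in the labels, and as far as they go both groups share breed and tissue. Total RNA was hybridised to Porcine Snowball arrays, 1 array per pig, and the values are log2 signals per probe set. What the number series stand for, such as a farm, a test group, a slaughter day or a laboratory batch, is not given in the labels. Sex, litter, carcass weight and hybridisation day are not given either, so from the labels none of these can be told apart from the number series. The study adjusted its expression values for sex, carcass weight and genetic similarity between pigs, which could not be done here.

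The liver makes most plasma proteins, synthesises fatty acids and cholesterol under the SREBP transcription factors, stores glycogen, breaks down amino acids and foreign compounds, and stores iron. Many of its transcripts follow feeding, the circadian clock, glucocorticoids and cell stress, and heat shock proteins in particular are induced within a short time when proteins misfold. Levels in whole liver also depend on the mix of hepatocytes, resident macrophages, lymphocytes, bile duct cells and blood in the piece that was taken. In such bulk tissue, fewer cells of a type and less RNA per cell cannot be told apart.

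The carcasses of both series differed in the size of muscle and fat. Loin eye area, the cross-section of the loin muscle, had a lowest, median and highest value of 36, 50.35 and 61.6 cm2 in series 21, against 33.5, 43.1 and 53.7 cm2 in series 29. It averaged 49.87 ± 6.48 cm2 in series 21 (SD, n = 28) and 43.10 ± 4.56 cm2 in series 29 (SD, n = 94), a difference of 6.77 cm2 with a standard error of 1.31 (two-sided permutation test, p = 1e-05, adjusted over the 3 traits 3e-05; 1e-05 is the smallest p that the permutations can give). The fat area above the muscle was also larger in series 21, at 18.56 ± 5.27 cm2 against 13.81 ± 4.75 cm2 in series 29 (difference 4.75, standard error 1.11, permutation test, p = 2e-05, adjusted 3e-05). Both series overlapped widely in both areas, and 80% of all pairs of 1 pig from each series had the larger loin eye area in the series 21 pig, 72.8% the larger fat area.

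The deposited meat to fat ratio equalled fat area divided by loin eye area, within 0.01, in all 122 pigs with 3 trait values, so a higher value means relatively more fat. It averaged 0.389 ± 0.154 in series 21 (n = 28) and 0.329 ± 0.132 in series 29 (n = 94), a difference of 0.059 with a standard error of 0.032 (permutation test, p = 0.046, adjusted 0.046). This last difference did not hold when ranks replaced the values (p = 0.14) or when the 2 pigs farthest from the median were left out (p = 0.26).

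Across the transcriptome, small differences were common and large ones few. Of 47722 probe sets, 23830 passed an FDR of 1% in limma with Benjamini-Hochberg adjustment (49.9%), of which 12372 were higher in series 21 (25.9%) and 11458 lower (24%), and 30882 had an unadjusted p under 0.05 (64.7%). The median difference was 0.0037 on the log2 scale, with a 5th percentile of -0.34 and a 95th of 0.47. With a size of 0.5 or more required as well, 2427 were called (5.09%), 1805 higher (3.78%) and 622 lower (1.3%). Only 23 called probe sets were higher in series 21 by 1 or more on the log2 scale, and 25 were lower by as much. With 1 probe set for each of 13755 named genes, the one of highest mean, 7251 were called (52.7%), 2776 higher in series 21 (20.2%) and 4475 lower (32.5%), with a median difference of -0.06. The counts of each gene group are to be read against these shares.

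Calls depended on signal level, and the array's control rows differed between the series too. Probe sets were ranked by their mean over all pigs and split into 5 equal bins. In the lowest bin, with means of 1.49 to 3.85, 60.3% were called higher in series 21 and 0.534% lower, and this bin held 5755 of the 12372 higher calls. The bin with means of 6.18 to 7.33 ran the other way, with 16.3% higher and 41% lower. With 1 probe set per gene, 44.8% of genes in this bin were lower, against 32.5% over all genes. In the bin with means of 5.17 to 6.18, 44.6% of genes were lower. Background rows, which match no pig transcript and are sorted by their number of G and C bases, differed in both directions too. Those with 3 to 12 such bases averaged 2.06 ± 0.11 in series 21 (range 1.90 to 2.32) and 1.66 ± 0.10 in series 29 (range 1.43 to 1.90), so that the series met only at 1.90. Rows with 15 to 20 such bases averaged 6.21 ± 0.18 in series 21 and 6.36 ± 0.22 in series 29.

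When the first 2 principal components of the background rows entered the fit as covariates, 5770 probe sets were called, and 4121 of the 23830 calls were kept with their sign (17.3%). Another 5953 of the 23830 had a difference of the opposite sign in this fit, called or not. Of the 7251 called genes, 1701 were kept (23.5%). The components took up 75.5% of the variance of the series label, so this fit has little room left to separate number series from background signal. The part of the background signal in the single differences was not tested further, and the value with these covariates is given beside genes whose call was lost.

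**Figure D1:**
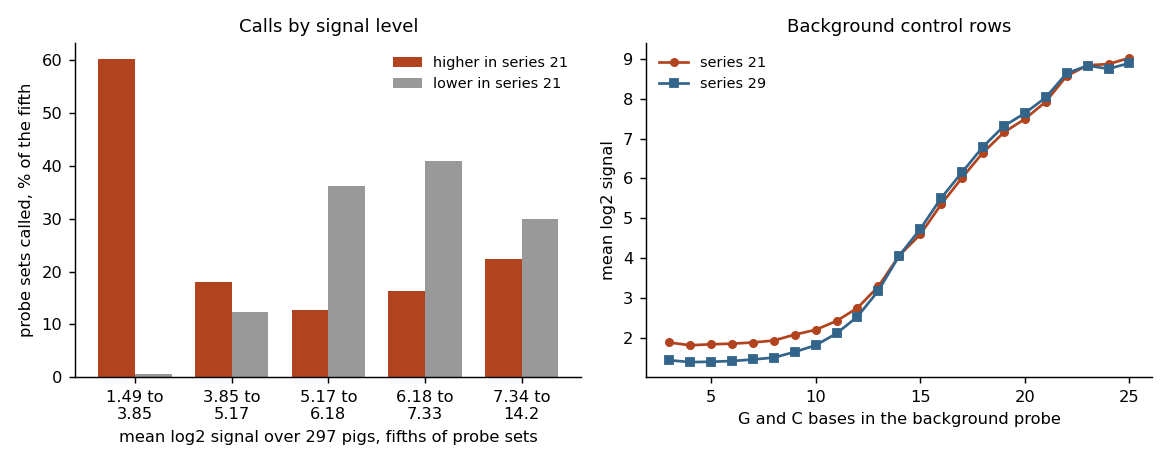
Left, share of probe sets called higher or lower in series 21 against series 29 (% of each of 5 equal bins, y axis) by mean log2 signal over all pigs (x axis); right, mean log2 signal of background control rows by number of G and C bases in series 21 (circles, n = 29) and series 29 (squares, n = 94). The lowest bin has 60.3% higher and 0.534% lower calls, and background rows of few G and C bases lie above in series 21.

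The 10 genes with the least overlap between the series were all lower in series 21. *APOC4*, an apolipoprotein of triglyceride-rich particles, had lowest, median and highest log2 signals of 10.93, 11.38 and 11.84 in series 21, against 11.56, 12.06 and 12.45 in series 29. A series 21 pig was above a series 29 pig in 0.367% of pairs, and the difference was -0.73 with a standard error of 0.042 (adjusted p = 1.33e-31). *COX17*, a copper chaperone of cytochrome c oxidase, had values of 7.07, 7.69 and 8.04 in series 21, against 7.93, 8.42 and 8.79 in series 29 (difference -0.70). *ATPIF1*, the inhibitor of mitochondrial ATP synthase, and *UBB*, a polyubiquitin gene, were lower in series 21 by 0.62 and 0.56 on the log2 scale. All 4 kept their call in each of the 20 alternative fits, including that with the background components.

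Of the other 6, *FTH1* and *RPL39* also kept their calls in all 20 alternatives. *FTH1*, the heavy chain of the iron store ferritin, ranged from 6.88 to 7.60 in series 21, against 7.28 to 8.08 in series 29 (difference -0.51, and -0.24 with the background components). *RPL39*, a ribosomal protein gene, was lower by 0.56 in series 21, and another of its 5 probe sets was called the other way. *YBX1*, which encodes a cold shock domain protein that binds mRNA, was lower by 0.63, *PDE4D*, a cyclic AMP phosphodiesterase, by 0.65 and *CCDC84* by 0.98. Another of the 6 probe sets of *PDE4D* was called higher (0.26), and the second probe set of *CCDC84* was not called (-0.01). With the background components the differences of *YBX1*, *PDE4D* and *CCDC84* were -0.19, -0.16 and -0.18 and were no longer called. Of all 47722 probe sets, 3 had no overlap between the series (0.00629%), and 0 of the 13755 chosen for genes (0%). The 3, without a gene symbol and singled out after their values were seen, were lower in series 21 by 1.35, 0.88 and 0.75, and the first of them, a probe set designed for a mouse microRNA, differed by -0.08 with the background components.

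**Figure D2:**
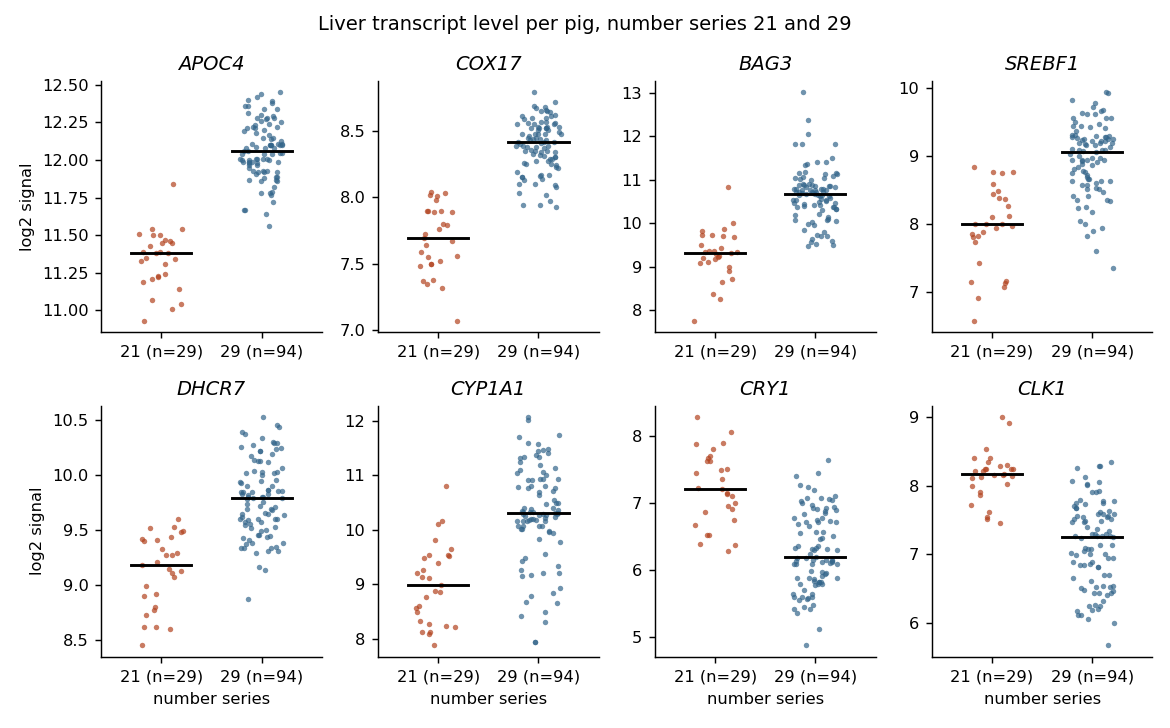
Log2 signal of 8 genes (y axis) for each pig of series 21 (left in each panel, n = 29) and series 29 (right, n = 94), with a line at the median. APOC4 and COX17 overlap in few pigs, while CYP1A1, CRY1 and CLK1 overlap over much of their range.

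Transcripts of cholesterol synthesis and uptake genes were mostly called lower in series 21. Of 15 measured genes, 11 were lower and 0 higher, with a median difference of -0.30. *DHCR7*, which catalyses the last step to cholesterol, had lowest, median and highest log2 signals of 8.45, 9.18 and 9.60 in series 21, against 8.87, 9.80 and 10.53 in series 29, a 1.59-fold lower signal (difference -0.67, standard error 0.072, adjusted p = 7.01e-14). Squalene synthase *FDFT1* was lower by 0.46, farnesyl diphosphate synthase *FDPS* by 0.45 and mevalonate diphosphate decarboxylase *MVD* by 0.40. The transcription factor *SREBF2*, which drives the pathway, was lower by 0.33, and *INSIG1*, which retains SREBPs in the endoplasmic reticulum, by 0.40. *HMGCS1*, which makes the first committed intermediate, had a difference of -0.43 but did not pass the test (adjusted p = 0.021). *INSIG1* was the 1 call lost with the background components (-0.38, adjusted p = 0.2227). Of the 11 calls, 10 were kept with them, 8 with loin eye area and fat area as covariates, and 6 in pigs of odd and of even numbers alike.

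Fatty acid and triglyceride genes were called lower more often than higher. Of 16 measured genes, 10 were lower in series 21 and 1 higher, with a median of -0.28. *SREBF1*, which encodes the lipogenic SREBP, had values of 6.58, 8 and 8.85 in series 21, against 7.36, 9.07 and 9.94 in series 29. Its signal was 2.03-fold lower (difference -1.02, standard error 0.114, adjusted p = 2.76e-13), although the series shared the range from 7.36 to 8.85. The desaturase *SCD* was lower by 0.57, malic enzyme *ME1*, which supplies NADPH, by 0.56, and acetyl-CoA synthetase *ACSS2* by 0.46. *LPIN2* and *DGAT2*, which act in triglyceride assembly, were lower by 0.40 and 0.39, and *DGAT2* was not called with the background components (-0.25).

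The probe sets of fatty acid synthase *FASN*, the central enzyme of the pathway, differed in sign. Of 3, 1 was called lower in series 21 (-0.24) and 0 higher. The one of highest mean had values of 11.15, 12.38 and 13.26 in series 21, against 10.51, 12.17 and 13.22 in series 29 (difference 0.26, adjusted p = 0.0168), and it was called higher in 8 of 20 alternatives and had the opposite sign in 1, with the background components (-0.49). The elongase *ELOVL6* was higher by 0.42, at a mean of 4.81 in series 21 and 4.39 in series 29, and by 0.05 with the background components. *SCD* had a difference of -0.79 with them (adjusted p = 0.0106) and -0.45 with the 2 carcass areas as covariates, neither past the FDR.

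Chaperones of the heat shock response were mostly lower in series 21. Of 14 measured genes, 8 were lower and 1 higher, with a median of -0.40. *BAG3*, a co-chaperone induced by heat shock factor, showed the largest decrease among the 13755 genes, with values of 7.76, 9.31 and 10.84 in series 21, against 9.47, 10.69 and 13.01 in series 29. This amounted to a 2.60-fold lower signal (difference -1.38, standard error 0.128, adjusted p = 4.37e-17), and 4.73% of pairs had the higher value in series 21. The small heat shock protein genes *CRYAB* and *HSPB1* were lower by 0.91 and 0.56, the inducible HSP90 gene *HSP90AA1* by 0.57, the HSP90 activator *AHSA1* by 0.47 and the mitochondrial co-chaperonin *HSPE1* by 0.43. *BAG3*, *CRYAB*, *AHSA1* and *HSPE1* kept their calls in all 20 alternatives. *HSP90AA1* lost it in 4, among them the background components (-0.74, adjusted p = 0.0235) and the 2 carcass areas (-0.32). The 1 higher gene, *DNAJB1*, lay in the lowest bin of signal, at 2.88 in series 21 and 2.66 in series 29, and its difference was -0.11 with the background components.

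Genes of the unfolded protein response, which expand the folding capacity of the endoplasmic reticulum, were lower as well, 8 of 12 against 1 higher, with a median of -0.30. The co-chaperone *DNAJB11* was lower by 0.43, the chaperone *HYOU1* by 0.42, the transcription factor *XBP1* by 0.39, and the disulfide isomerases *PDIA6* and *PDIA4* by 0.37 and 0.36. *DNAJB9*, another co-chaperone, was higher by 0.32, and its call was lost with the background components (-0.14), as was that of *XBP1* (-0.44). In the integrated stress response, 5 of 11 genes were lower (45.5%, against 32.5% over all genes) and 0 higher. *DDIT4*, an inhibitor of mTORC1, was at -0.73 and *TRIB3* at -0.64, and *TRIB3* was not called with the background components (-1.005). Of the 5 calls, 3 were kept with these components, 2 with quantile normalization repeated and 1 with the 2 carcass areas as covariates. In pigs of odd and of even numbers alike, 0 were kept. *DDIT4* lost its call in 2 of 20 alternatives and *TRIB3* in 5.

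Immediate early genes, which respond within minutes to signals and tissue handling, were lower in 5 of 15 cases and higher in 1, a share close to the background of 32.5%. *GADD45B* had values of 5.79, 6.78 and 8.34 in series 21, against 6.25, 7.81 and 10.80 in series 29 (2.32-fold lower, adjusted p = 1.18e-06). *JUNB*, like *GADD45B*, varied more in series 29, with an SD of 0.52 in series 21 and 1 in series 29 (difference -0.80). *SOCS3*, the feedback inhibitor of cytokine signalling, was lower by 0.71, and *KLF6*, a zinc finger factor, was higher by 0.69, with another of its 3 probe sets called lower (-0.21). *JUNB*, *KLF6* and *GADD45B* lost their calls in 5, 4 and 1 of 20 alternatives, with differences of -1.21 for *JUNB* and 0.26 for *KLF6* under the background components, neither called.

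**Figure D3:**
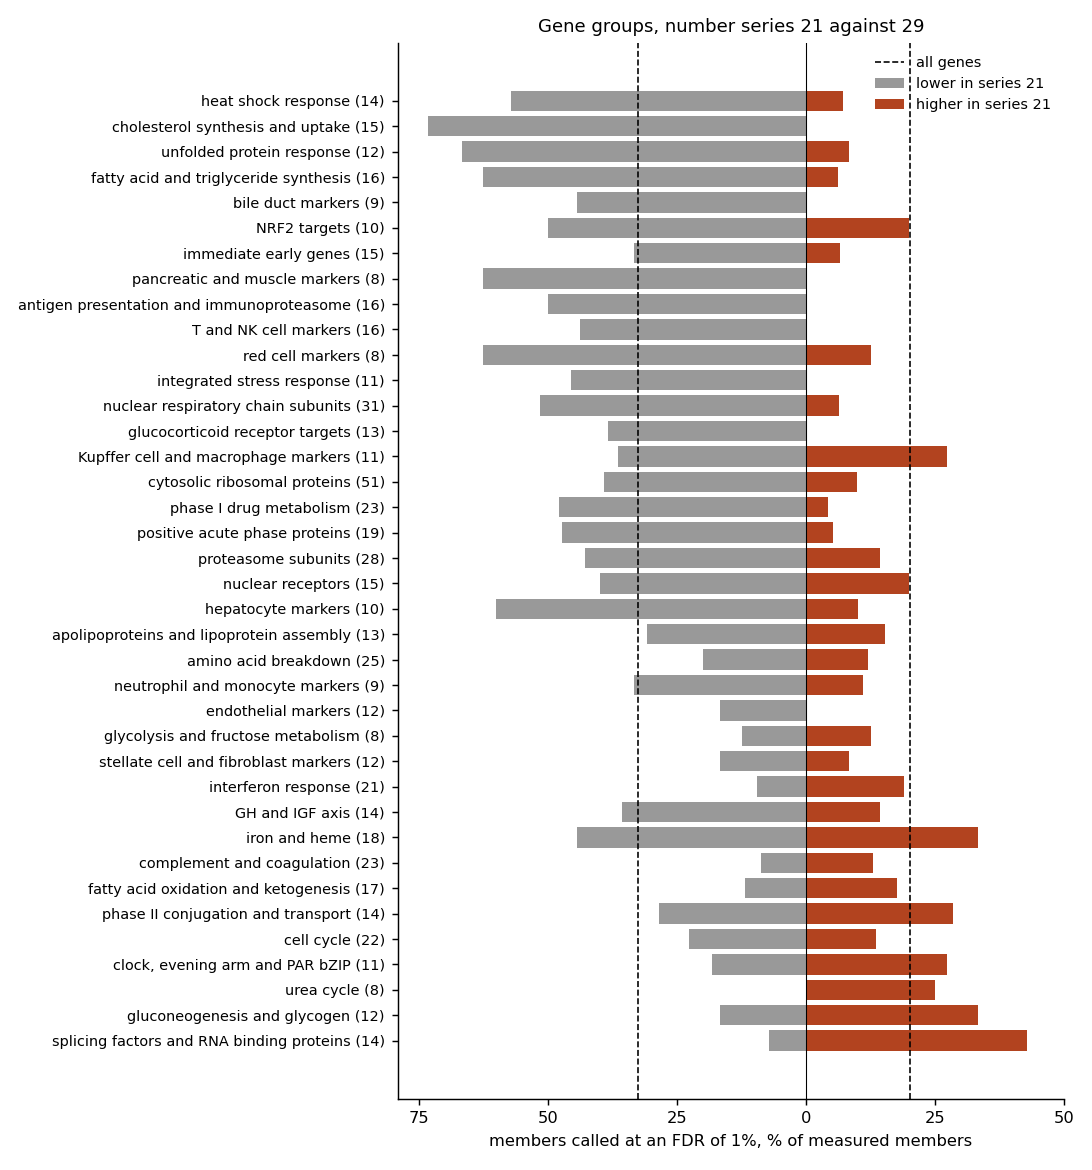
Members of each gene group called lower (left of 0) or higher (right of 0) in series 21 against series 29, in % of measured members (x axis), for groups with 8 or more measured genes (number in brackets, y axis). Dashed lines mark 32.5% lower and 20.2% higher over all genes and take no account of signal level. Cholesterol synthesis and uptake genes have 11 of 15 members lower and 0 higher, and splicing factors 6 of 14 higher.

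Nuclear genes of the respiratory chain were lower in 16 of 31 cases and higher in 2, with a median of -0.17. *NDUFB8* of complex I ranged from 8.18 to 9.62 in series 21, against 9.18 to 10.17 in series 29 (difference -0.49, adjusted p = 7.16e-15). *COX6C* of complex IV was lower by 0.47 and *ATP5J* of the ATP synthase by 0.43, and the second probe set of *COX6C* was called higher by 0.34. Of the 18 calls, 13 were kept with the background components. None of the 26 genes encoded by the mitochondrial genome had a named probe set here.

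Subunits of other large complexes moved in both directions. Among 51 cytosolic ribosomal protein genes, 20 were lower and 5 higher in series 21, with a median of -0.10. *RPL27A* was lower by 0.45, while *RPL29* was higher by 0.42 at a signal of 2.99 in series 21 and 2.57 in series 29, and by 0.04 with the background components. Among 28 proteasome subunits, 12 were lower and 4 higher, with a median of -0.09 that turned to 0.03 with the spike-in signal as a covariate.

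Of 23 measured phase I genes of drug metabolism, 11 were lower in series 21, 1 was higher and 11 were not called, with a median of -0.10 that became -0.01 when quantile normalization was repeated. Of the 12 calls, 3 were kept with the background components. *CYP1A1*, which is induced through the aryl hydrocarbon receptor, had values of 7.88, 8.99 and 10.80 in series 21, against 7.94, 10.31 and 12.07 in series 29 (2.45-fold lower, difference -1.29, standard error 0.180, adjusted p = 1.08e-09). Its relative *CYP1A2* was lower by 0.28. The 2 fatty acid hydroxylase genes *CYP4A21* and *CYP4A24* were lower by 0.49 and 0.48, and they may share hybridisation because they are close copies. *CYP2E1*, among the most abundant hepatic cytochromes, was lower by 0.14. With the background components, *CYP1A1* had a difference of -1.12 (adjusted p = 0.018) and was not called, nor were *CYP1A2* (-0.23) and *CYP4A24* (-0.36), whereas *CYP4A21* was (-0.61).

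The carboxylesterase *CES1* had values of 11.40, 12.01 and 12.50 in series 21, against 6.01, 12.87 and 13.36 in series 29. A series 21 pig was above a series 29 pig in 1.596% of pairs (difference -0.80). The SD was 0.27 in series 21 and 0.74 in series 29, and the call was lost in 3 of 20 alternatives, among them the background components (-0.705).

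Conjugating enzymes and transporters were split, with 4 higher and 4 lower of 14. *TPMT*, which methylates thiopurines, had values of 8.12, 8.90 and 9.45 in series 21, against 6.75, 8.20 and 9.39 in series 29 (1.76-fold higher, adjusted p = 1.56e-08). The sulfotransferase *SULT1A1* was lower by 0.47 and the microsomal glutathione transferase *MGST1* by 0.41, with the other probe set of *MGST1* higher by 0.24. The exporter *ABCC3* was higher by 0.58, at 2.72 in series 21 and 2.14 in series 29, and by 0.02 with the background components.

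Iron and heme genes changed often and in both directions, 6 higher and 8 lower of 18. *HAMP*, which encodes the iron hormone hepcidin, had values of 7, 9.53 and 11.40 in series 21, against 8.20, 10.30 and 12.58 in series 29 (1.90-fold lower, adjusted p = 0.000274). Its difference was -0.15 and not called when the series 21 pigs were restricted to the 11 numbered 2150 or above, and 4 further alternatives lost the call, among them the background components (-1.29, adjusted p = 0.03391). The iron exporter *SLC40A1*, which hepcidin removes from the cell surface, was higher by 0.27. *ALAS1*, the first enzyme of heme synthesis, was higher by 0.43, and *ACO1*, an aconitase that doubles as iron regulatory protein, was lower by 0.32. Positive acute phase proteins were lower in 9 of 19 cases and higher in 1, among them *LCN2* at -0.34 and C-reactive protein *CRP* at -0.27. Of these 10 calls, 3 were kept with the background components and 2 with the 2 carcass areas as covariates. The call of *LCN2* was lost with the background components (-0.42). *CRP* lost its call in 9 of 20 alternatives, among them repeated quantile normalization (-0.17) and the spike-in signal as a covariate (-0.11).

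In the growth hormone axis, *IGF1*, the main circulating growth factor made by liver, had values of 8.56, 10.57 and 11.54 in series 21, against 8.65, 9.90 and 11.25 in series 29 (difference 0.55, adjusted p = 0.000101). Its 7 probe sets disagreed, with 2 called higher and 1 lower and differences from -0.53 to 0.55. The call was lost in even animal numbers (0.47) and with the background components (0.14, adjusted p = 0.7316). The binding protein genes *IGFBP2* and *IGFBP3* were lower by 0.53 and 0.35 (*IGFBP3* was not called with the background components, at -0.27), and the insulin receptor *INSR* was higher by 0.29. Over the 14 genes of the axis, 2 were higher and 5 lower.

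The glycogen-targeting phosphatase subunits *PPP1R3C* and *PPP1R3B* were higher by 0.73 and 0.52 and liver glycogen synthase *GYS2* by 0.31, and 4 of 12 genes of gluconeogenesis and glycogen were higher and 2 lower. *PPP1R3C* ranged from 7.57 to 11.75 in series 21, against 6.28 to 11.92 in series 29, so that its series overlapped almost fully, and 8 of 20 alternatives lost the call. *PPP1R3B* lost its call in 10, among them odd animal numbers (0.35). Their differences with the background components were 0.50 for *PPP1R3C* and 0.26 for *PPP1R3B*, neither called. Alanine aminotransferase *GPT2* was higher by 0.71, and it lost its call in 5 of 20 alternatives, with 0.32 against the 49 pigs of series 29 with the lower numbers and 0.29 with the background components. The urea cycle enzymes *OTC* and *CPS1* were higher by 0.39 and 0.19. Of the 8 urea cycle genes, 2 were higher, 0 lower and 6 not called, a share of 25% higher that was near the 20.2% over all genes. *CPS1* lost its call in 6 alternatives, and with the background components neither *CPS1* (0.21) nor *OTC* (0.38) was called.

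The 2 subunits of propionyl-CoA carboxylase, which breaks down branched-chain amino acids and odd-chain fatty acids, differed in direction in their probe sets of highest mean. The second probe set of *PCCB* was not called (0.135). *PCCB* had values of 10.16, 10.70 and 11.05 in series 21, against 10.54, 11.22 and 11.71 in series 29 (difference -0.54, adjusted p = 7.78e-20), and it kept its call in all 20 alternatives. *PCCA* had values of 10.39, 10.65 and 10.93 in series 21, against 8.93, 10.38 and 10.90 in series 29 (difference 0.44, and 0.25 and not called with the background components). *PCCA*, like *OTC*, had a long lower tail in series 29 that was missing in series 21.

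Clock genes moved in both directions. Of 11 genes of the evening arm, 3 were higher and 2 lower. *CRY1*, a repressor of the clock, had values of 6.28, 7.20 and 8.28 in series 21, against 4.87, 6.19 and 7.64 in series 29 (1.90-fold higher, adjusted p = 7.82e-11). *HLF*, a clock-controlled transcription factor, was higher by 0.68, and of its 3 probe sets only 1 was called. The period gene *PER3* was lower by 0.42, which was not called with the background components (-0.19). Of 13 glucocorticoid receptor targets, 5 were lower, 0 higher and 8 not called, a share of 38.5% lower that was near the 32.5% over all genes. Of these 5 calls, 1 was kept with the background components and 2 with the 2 carcass areas as covariates. *ZBTB16* was lower by 0.82 and kept its call in all 20 alternatives, while the kinase *SGK1* at -0.50 and tyrosine aminotransferase *TAT* at -0.21 lost theirs in 8 and 7, including the background components (-0.69 for *SGK1* and -0.29 for *TAT*).

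Splicing factors ran against the general direction of named genes, with 6 of 14 higher and 1 lower and a median of 0.14. *CLK1*, a kinase that phosphorylates SR proteins, had values of 7.46, 8.17 and 9.00 in series 21, against 5.67, 7.25 and 8.35 in series 29 (2-fold higher, standard error 0.120, adjusted p = 5.69e-12). *LUC7L3* and *RBM39* were higher by 0.69 and 0.55 and stayed called with the background components, whereas *RBM25*, at 2.11 in series 21 and 1.68 in series 29, did not (0.10).

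The largest increases were of varied function. *KIF2C*, a kinesin that depolymerises microtubules, had values of 5.45, 7.79 and 9.52 in series 21, against 3.86, 6.75 and 8.51 in series 29 (2.30-fold higher, adjusted p = 1.68e-06). The glutamate transporter *SLC1A2* was higher by 1.08, *FGF13* by 1.05, *ABCE1*, which recycles ribosomes, by 1.02, and *SLC44A5*, *NEB*, *SLC38A1*, *N4BP2* and the potassium channel gene *KCNMA1* by 0.96 to 1. *LRRN3*, *KLHL24*, the helicase gene *WRN* and *ZNF292* were higher by 0.88 to 0.92. *ABCE1* had values of 9.38, 10.19 and 10.68 in series 21, against 7.68, 9.31 and 10.26 in series 29, and 93.7% of pairs had the higher value in series 21. *FGF13* lost its call in 5 alternatives and had a difference of -0.42 with the background components. Under these *SLC1A2* (0.82), *SLC44A5* (0.95), *SLC38A1* (0.89) and *NEB* (0.56) were not called either. Other probe sets of *KIF2C* and *SLC38A1* were called lower, and the second probe set of *SLC1A2* was not called (0.04).

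Among the largest decreases, *RAB15*, a small GTPase, was lower by 1.14, *TSKU*, a secreted protein of liver, by 1.05, and *ACTG1*, a cytoplasmic actin, by 0.96. *ACTG1* had values of 8.40, 10.08 and 10.83 in series 21, against 10.17, 10.98 and 11.77 in series 29 (adjusted p = 6.87e-21). The microRNA gene *MIR383* was lower by 0.93, the ubiquitin ligase gene *MID1* by 0.93, the calcineurin subunit gene *PPP3CB* by 0.83 and *LOC100525112* by 0.82. With the background components *MIR383* had a difference of 0.21 and *PPP3CB* of -0.36, neither called, and 3 of the 7 probe sets of *PPP3CB* were called higher.

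Of 16 T and NK cell markers, 7 were lower in series 21, 0 higher and 9 not called, with a median of -0.19. Their share of 43.8% lower was near the 44.8% of all genes in the bin with means of 6.18 to 7.33. The mean level of this list, 6.50 in series 21 and 6.67 in series 29, lies in that bin. Of 6 B and plasma cell markers, 2 were lower and 1 higher. *CD3E*, part of the T cell receptor complex, had values of 5.42, 5.88 and 6.30 in series 21, against 5.56, 6.39 and 7.16 in series 29 (difference -0.50, adjusted p = 5.81e-12). The chemokine *CCL5* was lower by 0.44 and the receptor chain *CD247* by 0.37. The second probe sets of *CD3E* and *CD247* were not called, at -0.04 each. Of 16 antigen presentation genes, 8 were lower, 0 higher and 8 not called, including the class II gene *SLA-DQB1* at -0.63, the class I gene *SLA-1* at -0.54 and the immunoproteasome subunit *PSMB8* at -0.50. With the background components 1 call of the T and NK list and 1 of the antigen presentation list were kept, those of *CCL5* and *SLA-DQB1*. Under these *CD3E* (-0.28), *CD247* (-0.32), *SLA-1* (-0.20) and *PSMB8* (-0.60) were not called.

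Interferon-induced genes did not share a direction, with 4 higher and 2 lower of 21. The RNA sensors *DDX58* and *IFIH1* were higher by 0.76 and 0.62, and *DDX58* was not called with the background components (0.83, adjusted p = 0.01417).

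Markers of the cell types that a liver sample can hold were measured alongside. Hepatocyte markers were near the top of the scale in both series, with *ALB* at 13.90 ± 0.05 in series 21 and 13.98 ± 0.06 in series 29, and 6 of 10 were lower and 1 higher with a median of -0.07. The difference of *ALB* became 0.00052 when quantile normalization was repeated and 0.02 with the background components. Bile duct markers were lower in 4 of 9 cases, with *KRT19* at -0.55 and *MMP7* at -0.60. This share of 44.4% was near the 44.8% of all genes in the bin with means of 6.18 to 7.33, where the mean of this list lies. With the background components 0 of these 4 calls were kept (*KRT19* -0.49, *MMP7* -0.09). *MMP7* lost its call in 7 of 20 alternatives. Red cell markers were lower in 5 of 8 cases and higher in 1, with *ALAS2*, the erythroid heme synthesis enzyme, at -0.61, and 1 of these 6 calls was kept (*ALAS2* -0.81, not called). Macrophage markers were split, 3 higher and 4 lower of 11, with the scavenger receptors *CD163* higher by 0.26 and *MARCO* lower by 0.33. *CD163* kept its call in 8 of 20 alternatives, and with the background components neither *CD163* (-0.04) nor *MARCO* (-0.31) was called. Of 8 pancreatic and muscle markers, 5 were lower, and with the background components 0 of these 5 calls were kept. The mean level of the T and NK markers of a pig ranged from 6.28 to 6.88 in series 21, against 6.19 to 7.07 in series 29. That of the red cell markers ranged from 6.61 to 7.32 in series 21, against 6.57 to 8.09 in series 29, and that of the pancreatic and muscle markers from 5.51 to 6.28 in series 21, against 5.74 to 6.41 in series 29. The part of these markers in the other differences was not tested.

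Against the other number series, the pigs of series 21 stood closest to the neighbouring numbers. Compared with series 22, 23, 24 and 25 (19 to 31 pigs each), 484, 2831, 967 and 2005 probe sets were called, and compared with series 26, 27 and 28, 10615, 14203 and 20893, with the same 29 pigs of series 21 in every comparison. Group sizes differ between these comparisons, which bears on the counts. The median absolute difference was 0.077 to 0.102 against series 22 to 25 and 0.171 to 0.207 against series 26 to 29, the largest against the 9 pigs of series 26. Of the 23830 probe sets called between series 21 and 29, the mean of series 21 was the highest or lowest of the 9 series in 53.1%, and that of series 29 in 14.3%.

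Single genes followed the order of the numbers to different degrees. *ACTG1* averaged 10.01, 10.13, 10.28, 10.24, 10.56, 10.64, 10.97, 11.13 and 10.97 in series 21 to 29, with SDs of 0.18 to 0.51, and neighbouring means differed by less than the larger of their SDs except between series 24 and 25. *CYP1A1* did not follow it, with 9.01 in series 21, 10.39 in series 22 and its lowest mean of 8.68 in series 27. *CLK1* and *ABCE1* were highest in series 21 and lowest in series 26 (9 pigs), at 6.52 and 8.51. Background rows with 3 to 12 G and C bases averaged 2.06, 2.04, 1.95, 1.96, 1.92, 1.91, 1.77, 1.58 and 1.66 in series 21 to 29, highest in series 21 and 22 and lowest in series 28 and 29.

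**Figure D4:**
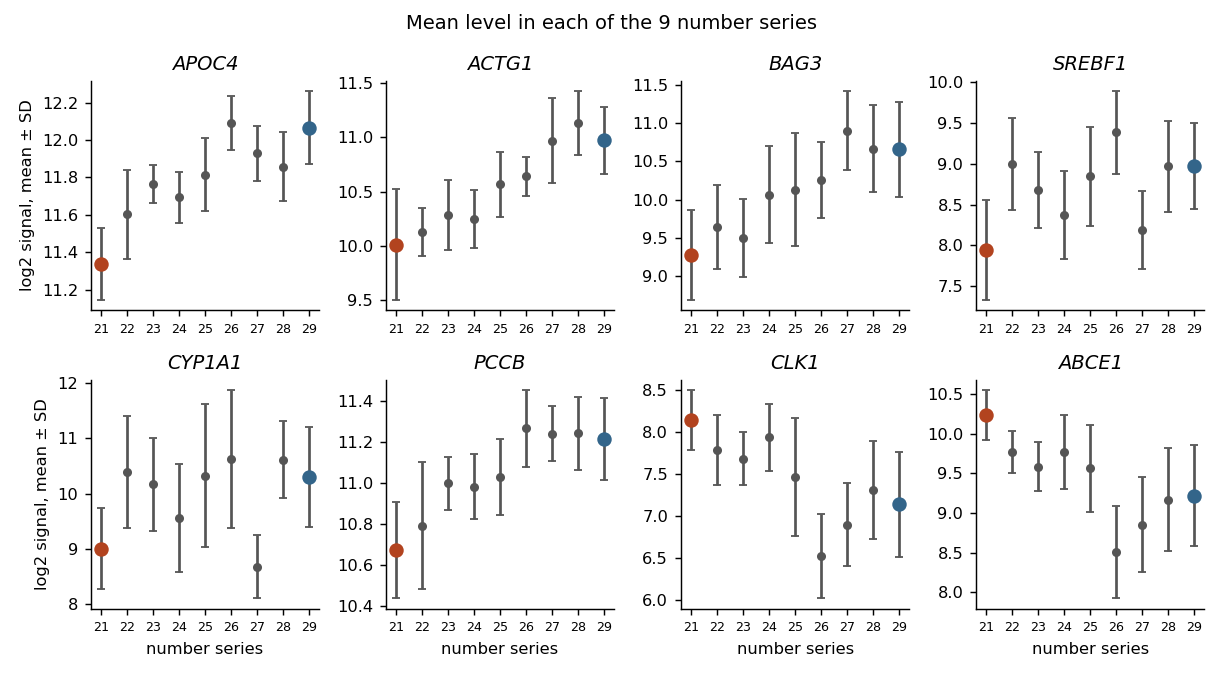
Mean log2 signal ± SD (y axis) of 8 genes in number series 21 to 29 (x axis; 29, 19, 31, 28, 21, 9, 20, 46 and 94 pigs), with series 21 and 29 as larger coloured points. ACTG1 climbs from 10.01 in series 21 to 11.13 in series 28, whereas CYP1A1 has its lowest mean, 8.68, in series 27.

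Most calls were kept when the carcass areas entered the fit. With loin eye area and fat area as covariates in the 122 pigs with values, 17380 probe sets were called, and 16806 of the 23830 calls were kept with their sign (70.5%), although the areas took up 48.5% of the variance of the series label. As the labels give no sex, the mean score of 7 X-linked genes expected to escape X inactivation was also used as a covariate. With it, 21753 of the 23830 calls were kept with their sign (91.3%). Of these 7 genes, 3 were called higher in series 21 and 1 lower, and of 2 Y-linked genes 0 were called. The part of sex in the differences was not tested. The relation of transcripts to the 2 carcass areas within each series was compared as well. For fat area, limma called 0 probe sets with a differing slope (3213 at an unadjusted p under 0.05, or 6.73%, and 0 with ranks of the trait). For loin eye area it called 0 (6092 at an unadjusted p under 0.05, or 12.8%; smallest adjusted p = 0.021). With ranks of loin eye area 2 were called, in *DBP*, a clock output gene, and *ZKSCAN4*, named after their values were seen. The slope over the ranks was -1.19 in series 21 and 0.244 in series 29 for *DBP* (adjusted p = 0.00761), and -0.72 in series 21 and 0.0687 in series 29 for *ZKSCAN4* (adjusted p = 0.00194, both from limma).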

How the data were processed

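Affymetrix Porcine Snowball arrays were used for all livers. The authors summarised the probes to log2 signals by robust multichip average in Expression Console, and the values were deposited rounded to 2 decimals and not filtered on detection. The submitters' processing notes name GCOS 1.1.1. This normalization sets a common distribution of probe signals, so differences are relative to the other probe sets of an array, and the number of arrays limits precision. Gene symbols came from the platform annotation, which is old, and 26426 probe sets carried 1 symbol, 21296 none and 0 several. The 123 control rows were left out of the tests. Pigs were grouped by the animal number in the title, and number series 21 and 29 were compared with limma 3.58.1 (R 4.3.3) over all 47722 probe sets, with Benjamini-Hochberg adjustment at an FDR of 1%, after a check on simulated data. Nothing in the labels says that pigs of a series are unrelated. The tests take pigs as independent and weigh each difference against the spread between these pigs. They do not cover how far number series differ from each other in general. Traits were compared by permutation tests with 100000 resamples.

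Genes were represented by the probe set of highest mean over all pigs. Named are the 15 largest differences in each direction, up to 5 called members and the defining members of each gene list, and the 10 genes of least overlap. Members and lists were chosen with earlier results of these data known. Of the 120 genes named by these rules, 78 had 2 or more probe sets, and 10 had another probe set called in the other direction. Further probe sets that were not called are given for some genes only. The alternatives covered a filter on signal, other normalizations, covariates, array weights, a rank test, subsets of animal numbers and a size minimum. The filter kept as many probe sets as the study retained for its own analysis, those with the highest 20th percentile of signal.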

Additional observations from a re-analysis of the deposited data

Results flagged for a closer look

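Control rows lie outside the comparison of transcripts and were looked at because they differed between the series. Background rows with 3 to 12 G and C bases were higher in series 21 than in series 29 by 0.396 on average. Control rows for sequences with no target in pig averaged 2.75 ± 0.15 in series 21 and 2.57 ± 0.10 in series 29, a difference of 0.184, and 6 of 12 passed the test, all of them higher. Spike-in transcripts added before labelling averaged 6.41 ± 0.18 in series 21 and 6.75 ± 0.35 in series 29, with 16 of 24 rows lower in series 21. The part of these differences in the transcript differences cannot be separated from the number series here.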

How the results depend on the processing

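The 12372 higher and 11458 lower calls moved by over 1.5 times in these fits. Higher and lower calls numbered 2344 and 3426 with the 2 components of the background rows as covariates, a fit chosen after seeing the data. They numbered 6360 and 5299 in even animal numbers (14 and 47 pigs), 7116 and 6712 with the 11 series 21 pigs numbered 2150 or above, both subsets of fewer pigs, and 1805 and 622 with a size of 0.5 or more required. Higher calls alone moved to 8076 when quantile normalization was repeated and to 4364 among the probe sets with the highest 20th percentile of signal, where they made up 32% of calls against 51.9% over all probe sets. Of the 23830 calls, 868 had a difference of the opposite sign with quantile normalization repeated, and 5953 with the background components. Centring each array on its median moved the median of all differences to 0.0472, against 0.0037, and gave 14908 higher and 8733 lower calls, 63.1% higher. The cause of these shifts was not tested. The other alternatives gave 16089 to 24420 calls in all. No paired analysis was possible because each animal number occurs once.

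The meat to fat ratio lost its call with ranks (difference of mean ranks 11.17), without the 2 pigs farthest from the median (0.0328) and in even animal numbers (0.00848), and the slope on loin eye area gained 2 calls with ranks of the trait. Loin eye area and fat area kept their direction and calls in all 4 alternatives each. Of the 120 genes named, 46 kept their call in every alternative, and 7 turned sign under an alternative without passing the test there. With the background components the differences were -0.106 for *DNAJB1*, -0.136 for *DNAJB9*, -0.486 for *FASN*, -0.418 for *FGF13*, -0.0426 for *CD163*, 0.213 for *MIR383* and 0.0246 for *ALB*. With quantile normalization repeated they were -0.00603 for *DNAJB1* and 0.000525 for *ALB*.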
